A study of Mus musculus with 14 samples.

Results

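Prepl and 6 related genes, Prep, Dpp6, Dpp7, Dpp8, Dpp9 and Dpp10, were followed in mouse striatum and cerebellum with and without a conditional knockout (cKO) of Thap1. All 7 were found by symbol among the genes of the count tables (23337 symbols). Prepl had been picked for its lower counts in cKO cerebellum, so its cerebellar values are given as a description without a test. The other 6 were picked by gene family, and all 7 passed the low-count filter in every comparison. The samples were RNA-seq libraries from microdissected, frozen tissue of C57Bl/6 mice aged 6 months: 3 wildtype (WT) and 3 Thap1 cKO samples of striatum, and 4 WT and 4 Thap1 cKO samples of cerebellum. Thap1 encodes a zinc-finger transcription factor whose mutation causes a form of inherited dystonia. The sources used here do not name the Cre driver, the deleted exons or the cells in which deletion took place. They also do not say that each library came from a separate animal. The p-values thus measure only the spread between these samples, which may be partly technical. Every group held libraries with 0 to 9 Xist counts and libraries with 22407 to 42241, so no group came from 1 animal alone.

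The prolyl oligopeptidases are serine hydrolases in which a propeller-shaped domain limits access to the active site, so that small peptides are the usual substrates. Prep cuts short peptides after proline. Prepl shares its fold, has little or no activity on the peptides that Prep cuts, and binds the clathrin adaptor AP-1, which sorts cargo at the trans-Golgi network; loss of human PREPL causes a congenital myasthenic syndrome, and its loss together with the neighbouring SLC3A1 causes hypotonia-cystinuria syndrome. Dpp8 and Dpp9 are cytosolic dipeptidyl peptidases that restrain the NLRP1 inflammasome. Dpp6 and Dpp10 lack peptidase activity and are membrane partners of the Kv4 potassium channels, which carry A-type current in neurons. Dpp7 is a vesicular dipeptidyl peptidase of a separate serine peptidase family, so the family label covers it only by its type of reaction.

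Prepl lies on the minus strand of chromosome 17 (chr17:85063470-85090241, GRCm38, GENCODE vM21 annotation). The 250 bases before its first RefSeq transcription start (chr17:85090275-85090524, minus strand, RefSeq on GRCm38.p6) are shown because this stretch also separates Prepl from the divergent gene Camkmt. Capitals mark the letters AAGATGG, the core bound by the zinc-finger factor YY1, or their reverse complement.

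Prepl upstream: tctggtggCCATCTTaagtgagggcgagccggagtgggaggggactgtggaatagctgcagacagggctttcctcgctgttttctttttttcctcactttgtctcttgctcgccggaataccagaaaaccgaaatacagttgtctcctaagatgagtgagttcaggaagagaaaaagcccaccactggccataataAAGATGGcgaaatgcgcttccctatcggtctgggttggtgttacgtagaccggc

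Both strands of the RefSeq promoter windows, 300 bases each, were searched for AAGATGG and for TNNGGCA. The letters TNNGGCA stood in for the THAP1 motif, and whether their spacing is that of the bound motif was not checked. The YY1 letters were chosen after the sequence had been seen. Prepl had 2 YY1 matches, whose first bases lie 242 and 54 bases before the start, and none of its windows held TNNGGCA. Of all 32851 windows, 6.34% held AAGATGG at least once, 0.292% held it 2 or more times, and 40% held TNNGGCA. The match farther from the Prepl start is also the single YY1 match of the Camkmt window, on the same bases. Windows were found for 6 of the 7 genes, with Prep the one not matched. Among the others, the Dpp8 window held 2 TNNGGCA matches and a Dpp6 window held up to 2. The windows of Dpp7, Dpp9 and Dpp10 held neither set of letters. These are matches of letters and not measured binding sites.

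Striatal libraries held 12595941 to 14258141 counts, and cerebellar libraries 19458954 to 28099205. Levels are in CPM, each count scaled to a common library size after TMM scaling over all 14 libraries. Thap1 measured 15.2 ± 1.19 CPM (SD, n = 3) in WT and 5.92 ± 2.08 (n = 3) in cKO striatum, and 8.91 ± 1.20 (n = 4) in WT and 6.98 ± 0.364 (n = 4) in cKO cerebellum. By edgeR, the log2 difference of Thap1 was -1.36 in striatum, which missed the threshold (adjusted p = 0.0562), and -0.34 in cerebellum (adjusted p = 0.0488). The tissue labels matched their markers: Drd1, Drd2 and Pdyn averaged under 1 CPM in cerebellum, and Gabra6, Neurod1, Fat2 and Cbln3 did so in striatum. WT striatal replicate 1 stood apart from its group, since a chi-square of its counts, divided by the degrees of freedom, was 28.6 and 28.2 against the other WT striatal libraries and 6.79 between those.

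Prepl was lower in cKO than in WT in both tissues. In striatum it measured 493, 423 and 418 CPM in the WT libraries and 268, 276 and 273 CPM in the cKO libraries. The lowest WT library was above the highest cKO library, and the WT libraries spread far more than the cKO ones, with replicate 1 the highest. The means were 445 ± 41.6 and 272 ± 3.87 CPM (SD, n = 3 each), so the cKO level was 61.2% of WT. The striatal log2 fold change was -0.71 (SE 0.0928), with an adjusted p of 0.0218 in edgeR's quasi-likelihood fit of all genes. Of the 14080 genes tested there, 0.384% were called in either direction and 0.32% were called lower. The results known when Prepl was picked covered both tissues, so its striatal values may have entered the choice, and this adjusted p is a description rather than an independent test.

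In cerebellum Prepl measured 355, 336, 346 and 346 CPM in WT and 201, 201, 221 and 222 CPM in cKO. All 4 cKO libraries were below all 4 WT libraries, and the cKO libraries fell into 2 pairs. The means were 346 ± 7.61 and 211 ± 12.03 CPM (SD, n = 4 each), the cKO level was 61.0% of WT, and the log2 fold change was -0.70 (SE 0.0390). The background in this comparison was 7.59% of 14775 genes called, 4.96% called lower, and nothing is read from Prepl's place in it. Raw Prepl counts ran from 3255 to 8757 per library.

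The side of the threshold on which striatal Prepl fell depended on single libraries, while its log2 fold change stayed within -0.76 to -0.63. Without WT replicate 1, the library that stood apart, the log2 fold change was -0.63 and the adjusted p 0.00112. The adjusted p rose to 0.0706 without WT replicate 3, to 0.207, 0.113 and 0.22 without cKO replicates 1, 2 and 3, and over all alternatives it ran from 9.83e-08 to 0.22 with edgeR or DESeq2.

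**Figure D1:**
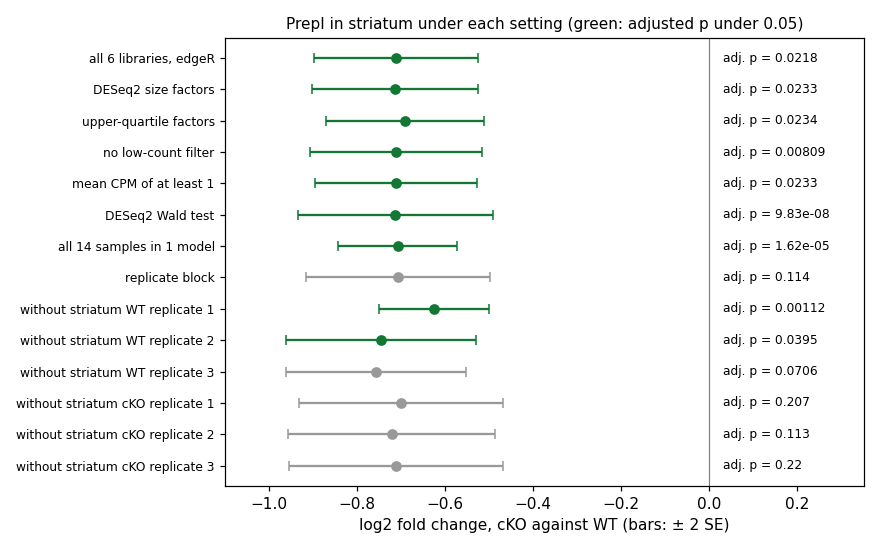
Striatal log2 fold change of Prepl, cKO against WT (horizontal axis, bars ± 2 SE), under each processing alternative (vertical axis), with the adjusted p at the right. The values stay between -0.76 and -0.63, while the adjusted p is above 0.05, so that the call is lost, in 5 of the 13 alternatives (grey points).

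Markers of other cells moved beside Prepl. In striatum, where 0.384% of all genes were called, all 12 oligodendrocyte and myelin markers had negative log2 fold changes and 6 of them were called lower, with a summed level of 8085 to 9902 CPM in WT and 5157 to 6384 CPM in cKO. None of 10 striatal projection neuron markers was called there by edgeR or DESeq2, and none had an unadjusted p under 0.05. Of all 14080 genes tested in striatum, 1020 had such a p by edgeR. In cerebellum, where 7.59% of all genes were called, 8 of 12 myelin markers were called lower (5072 to 5603 CPM summed in WT, 4389 to 4933 in cKO). Lower calls were also made for 4 of 12 granule cell markers (7058 to 7971 in WT, 6677 to 7040 in cKO). All 10 Purkinje cell markers there had positive log2 fold changes, and 1, Itpr1, was called higher. The summed Purkinje level was 12538 to 13197 CPM in WT and 13112.6 to 14312.5 in cKO. Of 10 astrocyte markers, edgeR called 0 in striatum, where 2 had an unadjusted p under 0.05 and DESeq2 called 2. The largest striatal values were those of Gfap, an intermediate filament gene, at 1.58 (SE 0.271, adjusted p = 0.0593), and Aqp4, a water channel gene, at 0.56 (SE 0.118, adjusted p = 0.136). The genotypes did not overlap for 3 of the 10 astrocyte markers in striatum, beside 15% of all genes tested there. Gfap and Aqp4 were higher in cKO, and Glul was lower (1555 to 1729 CPM in WT, 1444 to 1500 in cKO).

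In cerebellum 6 of the 10 astrocyte markers were called, Gfap (0.81), Aqp4 (0.53), Gdf10 (0.26) and Gja1 (0.25) higher and S100b (-0.23) and Slc1a3 (-0.20) lower. The summed astrocyte level was 6745 to 7935 CPM in WT and 7094 to 7468 in cKO striatum, and 5473 to 5802 in WT and 5441 to 5870 in cKO cerebellum. All 8 choroid plexus and ependymal markers had positive log2 fold changes in both tissues, and 0 were called by edgeR or DESeq2, with 1 in striatum and 3 in cerebellum at an unadjusted p under 0.05. Over all genes tested, 1020 of 14080 in striatum and 3327 of 14775 in cerebellum had such a p by edgeR. Their summed level was 81.1 to 101 CPM in WT and 105 to 264 in cKO striatum, and 48.5 to 2111 in WT and 722 to 3419 in cKO cerebellum; Ttr, the transthyretin gene, had a striatal log2 fold change of 3.41 (SE 1.09, adjusted p = 0.557). The part of these markers in the Prepl result was not tested. In bulk tissue, fewer cells of a type and less RNA per cell cannot be told apart.

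**Figure D2:**
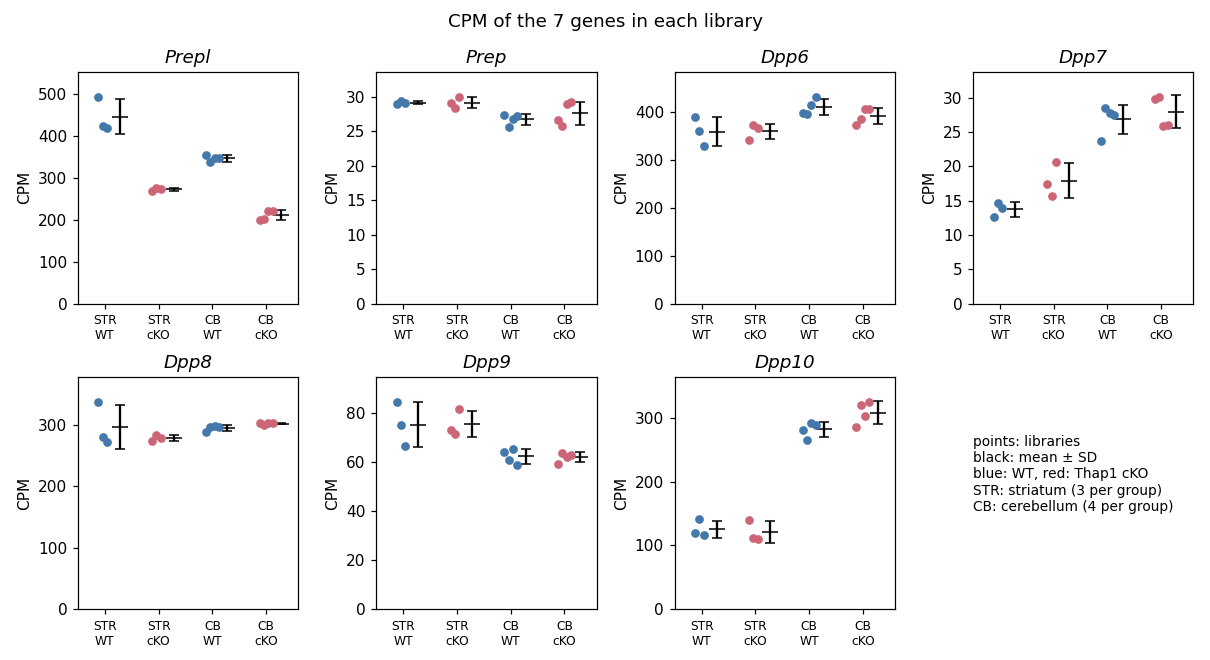
CPM of each of the 7 genes (vertical axes from 0) in every library, grouped by tissue and genotype, with blue points for WT and red for cKO and black bars for mean ± SD. Prepl is the gene whose cKO libraries lie clearly below WT in both tissues; Dpp10 and Dpp7 are higher in cerebellum.

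None of the other 6 genes passed the genotype test in either tissue. Prep measured 28.9, 29.4 and 29.1 CPM in WT striatum and 29.1, 28.4 and 30.0 in cKO striatum, and the genotypes overlapped. Its log2 fold change was 0.00 in striatum (SE 0.0946) and, in cerebellum, 0.06 (SE 0.0536, adjusted p = 0.542). The interval of ± 2 SE ran from -0.19 to 0.19 in striatum, an interval that does not reach the change of Prepl. Dpp9 had log2 fold changes of 0.00 in both tissues (SE 0.111 and 0.0433), with 66.4 to 84.5 CPM in WT striatum, 71.5 to 81.6 in cKO striatum, 58.9 to 65.3 in WT cerebellum and 59.0 to 63.8 in cKO cerebellum. Neither gene is shown to be unaffected by these values, which bound the change.

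Dpp7 measured 12.6, 14.7 and 13.9 CPM in WT striatum and 17.4, 15.6 and 20.7 in cKO striatum. All cKO libraries were above all WT libraries. A separation of the groups, in either direction, held for 15% of the genes tested there. The striatal log2 fold change was 0.38 (SE 0.144) and did not pass the edgeR test (adjusted p = 0.615). In cerebellum Dpp7 had 23.7 to 28.5 CPM in WT and 25.9 to 30.2 in cKO, a log2 fold change of 0.07 (adjusted p = 0.613).

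Dpp8 measured 338, 281 and 273 CPM in WT striatum against 274, 283 and 279 in cKO striatum, a log2 difference of -0.10 (SE 0.0997, adjusted p = 0.821). Its WT mean is raised by replicate 1, the library that stood apart, and without that library the log2 fold change was 0.01. In cerebellum its WT values were 288, 297, 299 and 296 CPM and its cKO values 303, 300, 303 and 303 CPM. The groups did not overlap, which held for 14.4% of genes, and the difference of 0.05 (SE 0.0303) on the log2 scale did not pass the edgeR test (adjusted p = 0.396).

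Of the Kv4 partners, Dpp6 had a log2 fold change of 0.00 (SE 0.0931) in striatum, where WT libraries held 390, 361 and 329 CPM and cKO libraries 343, 373 and 367. In cerebellum it was -0.05 (SE 0.0421, adjusted p = 0.5), with 396 to 433 CPM in WT and 373 to 407 in cKO. Dpp10 measured 120, 141 and 116 CPM in WT striatum and 140, 112 and 110 in cKO striatum, a log2 difference of -0.06 (SE 0.122, adjusted p = 0.9). In cerebellum Dpp10 measured 281, 266, 293 and 289 CPM in WT and 285, 320, 304 and 325 in cKO. The genotypes overlapped, and the log2 fold change of 0.14 (SE 0.0429) missed the edgeR threshold (adjusted p = 0.0549). With the replicate number as a block, the Dpp10 adjusted p was 0.0488, though the numbers are not shown to pair the samples. Without cKO replicate 1, and with no block, the Dpp10 adjusted p was 0.0211.

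**Figure D3:**
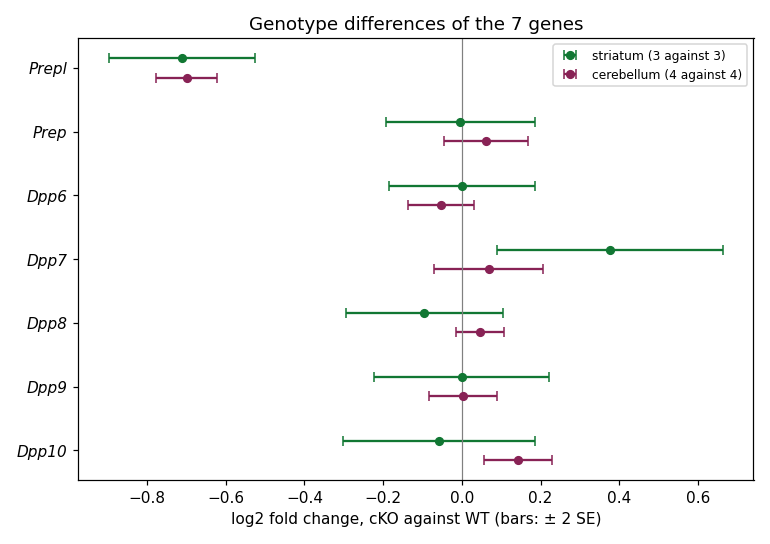
Log2 fold changes, cKO against WT (horizontal axis, bars ± 2 SE), of the 7 genes (vertical axis) in striatum and cerebellum. Prepl stands at -0.71 and -0.70; the other genes lie between -0.10 and 0.38.

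Apart from Prepl, edgeR called 0 of the 6 genes in striatum and 0 of 6 in cerebellum, beside 0.384% and 7.59% of all genes. In each tissue 1 of them had an unadjusted p under 0.05, Dpp7 in striatum and Dpp10 in cerebellum, and DESeq2 called 0 in striatum and 1 in cerebellum. Over all genes, 1020 of 14080 in striatum and 3327 of 14775 in cerebellum had such a p by edgeR. DESeq2 called 153 genes in striatum and 1252 in cerebellum. The genotype by tissue interaction subtracts the striatal from the cerebellar fold change on the log2 scale. It was called for 0 of the 6 by edgeR and by DESeq2. Of all 15401 genes, edgeR called 0.39% and DESeq2 called 228. Among the 6, Dpp7 had the one unadjusted p under 0.05 in the edgeR interaction test, with a value of -0.32 (SE 0.149, adjusted p = 0.422). Over all genes 1793 had such an unadjusted p. The median log2 fold change over the 7 genes was 0.00 in striatum and 0.05 in cerebellum, beside 0.00 in each over all genes tested.

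Levels were compared between genes only per length, as CPM per kilobase of annotated exon. The exon lengths join all annotated isoforms, from 3.34 kb for Dpp7 to 15.78 kb for Dpp10, so genes with long or rarely used exons read low. In WT striatum Prepl stood highest at 79.7 ± 7.45 CPM per kb, then Dpp6 at 29.2, Dpp8 at 21.7, Dpp9 at 9.55, Dpp10 at 7.96, Dpp7 at 4.12 and Prep at 2.67. Dpp9 and Dpp10 overlapped between libraries, and the other neighbours in this order did not. In WT cerebellum the order was Prepl at 61.9 ± 1.36, Dpp6 at 33.3, Dpp8 at 21.5, Dpp10 at 17.9, Dpp7 at 8.05, Dpp9 at 7.90 and Prep at 2.44, and only Dpp7 and Dpp9 overlapped.

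Prepl remained the highest of the 7 per kilobase in cKO, at 48.8 ± 0.693 CPM per kb in striatum and 37.8 ± 2.15 in cerebellum. Its share of the summed level of the 7 genes was 51.5% ± 1.09 in WT and 39.5% ± 0.460 in cKO striatum (SD, n = 3). In cerebellum the share was 40.5% ± 0.828 in WT and 29.1% ± 0.946 in cKO (SD, n = 4). The cKO cerebellar level of Prepl came near that of Dpp6, at 31.8 ± 1.37 CPM per kb, without overlap between libraries.

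**Figure D4:**
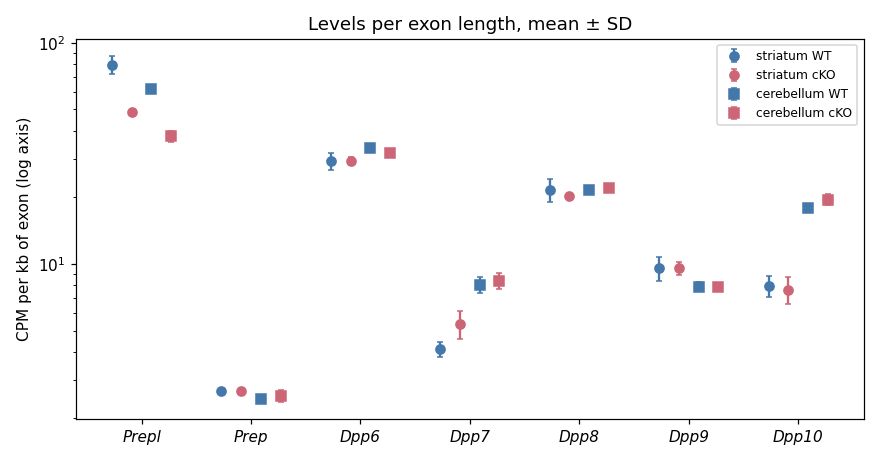
CPM per kilobase of exon (vertical, log axis) of the 7 genes, mean ± SD, with circles for striatum and squares for cerebellum, blue for WT and red for cKO. Prepl is highest in all 4 groups, from 37.8 to 79.7, and Prep lowest.

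Dpp10 and Dpp7 were higher in cerebellum than in striatum in both genotypes. Between WT tissues, where 64.2% of 15031 genes were called in either direction, edgeR called 3 of the 6 genes other than Prepl. Dpp10 was higher in cerebellum by 1.16 on the log2 scale (SE 0.0831, adjusted p = 1.26e-06) and Dpp7 by 0.96 (SE 0.101, adjusted p = 2.13e-05). Prepl, whose cerebellar values chose it and are not tested, stood at -0.37 on the log2 scale (SE 0.0801). Dpp9 was lower in cerebellum, at -0.28 (SE 0.0927, adjusted p = 0.0243), a call that was lost with upper-quartile scaling (adjusted p = 0.0652), with the replicate block (0.0911), and without striatal WT replicate 2 (0.0502) or cerebellar WT replicates 2 (0.0554) or 4 (0.0667).

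Dpp6 had a WT log2 fold change of 0.19 between tissues (SE 0.0812, adjusted p = 0.0686), which passed without WT striatal replicate 1 (0.26, adjusted p = 0.00176), with upper-quartile scaling (0.0157), with no low-count filter (0.0439) and with all 14 samples in 1 model (0.014). Prep had -0.13 (SE 0.0715, adjusted p = 0.138) and Dpp8 -0.01 (SE 0.0874, adjusted p = 0.895), a value that was 0.06 with upper-quartile scaling. In the cKO samples, with 74.4% of 15080 genes called, edgeR called 4 of the 6 genes other than Prepl. Dpp10 stood at 1.35 (SE 0.0850), Dpp7 at 0.64 (SE 0.0977), Dpp9 at -0.29 (SE 0.0550) and Dpp8 at 0.11 (SE 0.0416, adjusted p = 0.0243), while untested Prepl was at -0.37 (SE 0.0488). The Dpp8 call was lost with all 14 samples in 1 model (adjusted p = 0.111), with the replicate block (0.081) and without cerebellar cKO replicate 3 (0.0503). Dpp6, at 0.12 (adjusted p = 0.053), passed under 5 alternatives (0.00338 to 0.0382), among them those without striatal cKO replicate 2 (0.0255) and cerebellar cKO replicate 1 (0.0275). A share of genes called near the background is not a result about these genes, and tissue cannot be told apart from the deeper sequencing of the cerebellar libraries.

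The neighbours of Prepl on chromosome 17 were measured to set its change beside theirs. Slc3a1, an amino acid transporter subunit on the opposite strand, shares 601 exonic bases with the 3′ end of Prepl and had 0 to 13 counts per library. Camkmt, a calmodulin methyltransferase gene listed under an older symbol, starts 310 bases from Prepl on the opposite strand. Camkmt measured 7.95, 8.99 and 7.92 CPM in WT striatum and 7.70, 7.90 and 9.64 in cKO striatum, a log2 difference of 0.02 (SE 0.159, adjusted p = 0.982). In cerebellum its WT values were 7.08, 8.06, 7.83 and 7.27 CPM and its cKO values 6.72, 6.33, 5.85 and 6.65 CPM. The cerebellar groups did not overlap, which held for 14.4% of genes, and the log2 fold change of -0.23 (SE 0.0896) did not pass the edgeR test (adjusted p = 0.137).

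Of the 12 genes listed around Prepl, edgeR tested 8 in striatum and 7 in cerebellum and called 0 in each. Over all genes it called 0.384% in striatum and 7.59% in cerebellum. In striatum 0 of the 8 had an unadjusted p under 0.05, in cerebellum 3 of the 7 did, and DESeq2 called 0 in both tissues. Over all genes tested, 1020 of 14080 in striatum and 3327 of 14775 in cerebellum had such a p by edgeR. Little is read from these counts. Without cerebellar WT replicate 2 edgeR called 1 of them, Ppm1b, a protein phosphatase gene singled out after its values were seen, at -0.15 (adjusted p = 0.0339). The median log2 fold change was -0.07 in striatum and 0.00 in cerebellum.

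**Figure D5:**
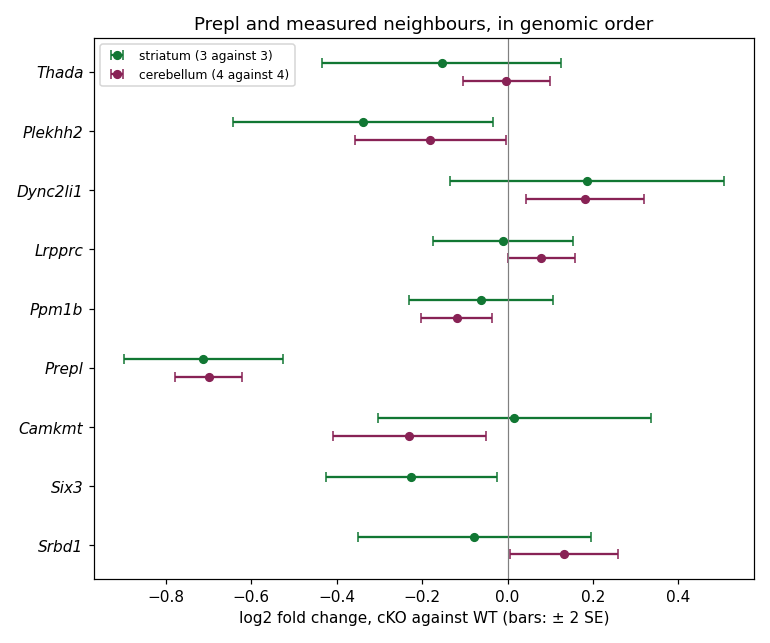
Log2 fold changes, cKO against WT (horizontal axis, bars ± 2 SE), of Prepl and its measured neighbours, in genomic order (vertical axis), in striatum and cerebellum. Camkmt, which starts 310 bases from Prepl, stands at 0.02 and -0.23 beside -0.71 and -0.70 for Prepl.

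Overlapping annotation bears on a few of the 7 genes. No source used here gives the strand setting of the counting, so reads from the shared bases of Prepl and Slc3a1 cannot be assigned with certainty. Dpp8 shares 316 exonic bases with the antisense gene Gm47350.

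The Kv4 channel complex, joined by Dpp6 and Dpp10, was described through its pore subunits Kcnd1 to Kcnd3 and the KChIP subunits Kcnip1 to Kcnip4. In striatum edgeR and DESeq2 called 0 of the 7, and none had an unadjusted p under 0.05. Of all 14080 genes tested there, edgeR called 0.384%, and 1020 had such an unadjusted p. In cerebellum edgeR called 1 of 7 and DESeq2 called 2, beside 7.59% of all genes called by edgeR. Kcnip3, a calcium-binding KChIP also known as DREAM, fell from 109 ± 6.62 to 91.1 ± 3.59 CPM (SD, n = 4 each), with a log2 difference of -0.25 (SE 0.0437, adjusted p = 0.00221). All 4 cKO libraries (88.2 to 95.6 CPM) were below all WT libraries (102 to 115), and groups did not overlap for 14.4% of genes. A model of all 14 samples gave Kcnip3 an adjusted p of 0.185 by edgeR.

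Kcnip4 had 136 ± 10.6 CPM in WT and 154 ± 8.37 in cKO cerebellum, a log2 fold change of 0.19 (SE 0.0547) that missed the edgeR threshold (adjusted p = 0.0599). It passed with DESeq2 (adjusted p = 0.015), with upper-quartile scaling (0.039) and with the replicate block (0.0276), and without WT replicate 3, WT replicate 4 or cKO replicate 1 it was 0.0463, 0.0417 and 0.0337. Kcnd2, the highest of the 3 pore subunits at 59.2 to 60.3 CPM per kb in WT, had log2 fold changes of -0.11 in striatum and 0.08 in cerebellum (adjusted p = 0.784 and 0.383). Between WT tissues edgeR called 6 of the 7 subunits, beside 64.2% of all genes, and no more is read from that count. Kcnip2 was lower in cerebellum, at -7.07 on the log2 scale (161 against 1.22 CPM). Kcnip1 (2.28), Kcnip4 (1.56) and Kcnd3 (1.17) were higher in cerebellum, and they and Kcnip2 were past the edgeR threshold. Kcnd1 (-1.16) and Kcnip3 (-0.35) were lower there, and Kcnd2 was at -0.03 (adjusted p = 0.742).

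Of 12 other peptidases, some of which cut at proline while others, such as Tpp1, Tpp2, Dpp3 and Apeh, are not specific for it, edgeR called 0 of 8 tested in striatum, where none had an unadjusted p under 0.05 and DESeq2 called 0. In cerebellum it called 1 of 11, a share near the 7.59% of all genes. The gene was Tpp1, the lysosomal tripeptidyl peptidase, with 97.2 ± 2.71 CPM in WT and 105 ± 3.55 in cKO (SD, n = 4 each) and a log2 difference of 0.12 (SE 0.0358, adjusted p = 0.0435). The Tpp1 call was lost with all 14 samples in 1 model (adjusted p = 0.296), with the replicate block (0.0603) and without any one of WT replicates 1, 3 and 4 or cKO replicates 1, 2 and 4 (0.0532 to 0.139). The AP-1 adaptor, to which Prepl binds, had 0 of 7 measured subunits called in either tissue by edgeR or DESeq2, none with an unadjusted p under 0.05, and median log2 fold changes of 0.00 in striatum and 0.04 in cerebellum. With 0.384% of all genes called in striatum and 7.59% in cerebellum by edgeR, 0 calls in so short a list show little. Such an unadjusted p was found for 1020 of 14080 genes in striatum and 3327 of 14775 in cerebellum.

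The NLRP1 inflammasome genes restrained by Dpp8 and Dpp9 had 0 of 5 called in striatum and 0 of 4 in cerebellum by edgeR or DESeq2, with none at an unadjusted p under 0.05. Over all genes edgeR called 0.384% in striatum and 7.59% in cerebellum, so 0 calls in lists this short show little. An unadjusted p under 0.05 was found for 1020 of 14080 genes in striatum and 3327 of 14775 in cerebellum. Of the precursors of proline-containing neuropeptides, edgeR and DESeq2 called 0 of 5 in striatum, none with an unadjusted p under 0.05. In cerebellum 1 of 6 was called, beside 7.59% of all genes, and no more is read from that count. The gene was Npy, the neuropeptide Y precursor, with 10.04 ± 1.49 CPM in WT and 7.44 ± 0.544 in cKO (SD, n = 4 each) and a log2 difference of -0.42 (SE 0.105, adjusted p = 0.0201). The Npy call was lost with all 14 samples in 1 model (adjusted p = 0.569) and without any one of WT replicates 3 and 4 or cKO replicates 1, 2 and 3 (adjusted p from 0.055 to 0.0718).

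The genes whose pattern was most like that of Prepl were ranked by Pearson's r of log2 CPM, as a description over libraries that share tissue and genotype. Over all 14 libraries and 10392 genes the 5 highest were Fam73a (0.977), Foxo4 (0.948), Mettl3 (0.948), Tmed10 (0.947) and Atpbd4 (0.933). Fam73a, a mitochondrial outer membrane protein gene, measured 179 ± 10.4 CPM in WT and 117 ± 5.37 in cKO striatum (SD, n = 3), and 140 ± 7.07 in WT and 90.0 ± 5.35 in cKO cerebellum (SD, n = 4). Its order of the 4 groups was that of Prepl, with cKO at 65.5% and 64.4% of WT. Over the 8 cerebellar libraries and 10173 genes the 5 highest were Car4 (0.994), Fxyd6 (0.992), Synpr (0.992), Cep250 (0.991) and Nat15 (0.990). Of these, Car4, a membrane-bound carbonic anhydrase gene, had cKO levels at 64.3% of WT in cerebellum and at 102.6% in striatum, where it measured 6.25 ± 1.95 CPM in WT. Among the 6 relatives of Prepl, r with Prepl over the 14 libraries ran from -0.63 for Dpp7 to 0.44 for Dpp9.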

How the data were processed

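For every sample the authors deposited raw read counts by gene symbol. The submitters' processing notes list the tools HTSeq 0.6.1p1, STAR, DESeq2 and cutadapt 1.13 and the build mm10, in no stated order; no source used here gives the strand setting or annotation. Library totals are in the report. Counts were compared with edgeR 4.0.16 (R 4.3.3): TMM factors, filterByExpr (minimum count 10, minimum total 15), robust quasi-likelihood tests within the groups compared, and Benjamini-Hochberg adjustment over all genes tested. Calls required an adjusted p under 0.05. Each SE was obtained by dividing the absolute log2 fold change by the root of F. The interaction used 1 model of all 14 samples. Comparisons that share samples (genotype and tissue) are not independent. DESeq2 1.42.0, other scalings, filters, a replicate block and leaving out each library were alternatives. The edgeR code was tested on simulated data. Positions and exon lengths come from GENCODE vM21 on GRCm38.

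Same-numbered WT and cKO cerebellar libraries deviated together from their group means over genes (r = 0.367, 0.179, 0.101 and 0.252). The closest cKO library to WT replicates 1, 2, 3 and 4 was replicate 1, 1, 4 and 3, so the numbers are not shown to be pairs. No label gives a pairing, and same-numbered cerebellar libraries also share their Xist status. The replicate block is given only as an alternative.

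The 7 genes and all lists were chosen with earlier results of these data known. Named genes are the 7, the nearest neighbours of Prepl, the Kv4 subunits, up to 4 called genes per other list, and the 5 genes most like Prepl in each set of libraries at a mean CPM of at least 10, skipping predicted symbols.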

Additional observations from a re-analysis of the deposited data

How the results depend on the processing

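The direction of Prepl held under every alternative run in both tissues. Genes called in striatum (54) numbered 153 with DESeq2, 376 with all 14 samples in 1 model and 15 with the replicate block, and 3 to 122 with 1 library left out. With the block, 0 of the 7 genes were called in striatum and Prepl stood at -0.71 (adjusted p = 0.114). Same-numbered striatal libraries correlated at 0.2798, 0.163 and 0.0985, and these numbers are not shown to be pairs either. Leaving out 1 library gave 0 to 1 of the 7 called, and Prepl at -0.76 to -0.63. Genes called in cerebellum (1121) numbered 251 with all 14 samples in 1 model and 739 to 1165 with 1 library left out. Apart from Prepl, 1 of the 6, Dpp10, was called in cerebellum with upper-quartile factors, DESeq2 or the block, and 0 to 1 with 1 library left out. In cerebellum the block was read for the 6 genes other than Prepl, Camkmt, Ppm1b, the Kv4 subunits, Tpp1 and Npy. Among these it changed only the calls of Dpp10, Kcnip4 and Tpp1. The calls of the cell markers and of Thap1 were not examined under the block. Interaction calls (60) numbered 228 with DESeq2, 19 with the block and 17 to 193 with 1 library left out. The cause of these shifts was not tested.

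Values near 0 changed sign, none of them called. In striatum these were Dpp6 with DESeq2 size factors (-0.0014) and DESeq2 (-0.0014), Prep with upper-quartile factors (0.0154), Dpp9 with upper-quartile factors (0.0192), all 14 samples (0.0031) and the block (0.0037), and Npy with DESeq2 size factors (-0.000896), a mean CPM of at least 1 (-0.000359) and DESeq2 (-0.000923). In cerebellum they were Dpp9 (-0.0103) and Kcnd1 (-0.00917) with all 14 samples; between WT tissues, Dpp8 with upper-quartile factors (0.0561) and no filter (0.00873). With 1 library left out, the striatal ranges were -0.0236 to 0.0146 (Prep), -0.0628 to 0.0688 (Dpp6), -0.157 to 0.0133 (Dpp8), -0.0865 to 0.0961 (Dpp9), -0.18 to 0.0325 (Dpp10), -0.0895 to 0.0796 (Camkmt), -0.124 to 0.021 (Kcnip4) and -0.303 to 0.198 (Npy). The cerebellar ranges were -0.022 to 0.0287 (Dpp9), -0.138 to 0.108 (Kcnd1) and -0.0468 to 0.0736 (Kcnip1); Dpp9 in the interaction ran from -0.0963 to 0.0695 and Dpp8 between WT tissues from -0.0800 to 0.101.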

Other observations

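Xist counts split the cerebellar libraries in the same way in both genotypes: replicates 1 and 2 had 6 and 9 counts, and replicates 3 and 4 had 38564 to 42241. Same-numbered WT and cKO cerebellar libraries thus share their Xist status, and they are the libraries that the replicate block joins for Dpp10, Kcnip4 and Tpp1. This split was looked at after the Prepl values had been seen, and it was not tested. In cKO cerebellum Prepl averaged 201 CPM in replicates 1 and 2 and 221 CPM in replicates 3 and 4, and in WT cerebellum 346 CPM in both. In cKO cerebellum 5 of the 7 genes did not overlap between the 2 pairs of libraries, and in WT cerebellum 2 of 7 did not. Over all 14775 genes tested in cerebellum the shares were 39.7% and 32%, so little is read from these counts. Dpp7 averaged 30.0 and 25.9 CPM in the cKO pairs, and 26.1 and 27.6 CPM in the WT pairs. In striatum, replicate 1 of each genotype had 0 or 1 Xist count, and WT replicate 1 is the library that stood apart.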
